A study of Arabidopsis thaliana with 24 samples.

Results

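The genes described are AT5G17820, AT4G26010 and AT5G64120, 3 class III peroxidases of Arabidopsis thaliana. Each was read by 1 probe set that names it alone (250059_at, 253998_at and 247327_at), 3 of the 22810 probe sets on the ATH1 array and 3 of the 13286 genes that a probe set named alone. They were chosen by measured values of these same arrays: AT5G17820 and AT4G26010 because their signals were lower in all the mutants than in wild type, and AT5G64120 because its signal differed between csn3 and csn5-labelled seedlings in darkness. Those differences, and values built from them or from the dark csn3 and csn5-labelled arrays of AT5G64120, are therefore given as a description with no test. The comparisons of light with darkness and of mutant pairs for AT5G17820 and AT4G26010 are other contrasts and were tested, but they reuse arrays that entered the choice. For AT5G64120 the tested comparisons hold no dark csn3 or dark csn5-labelled array.

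Whole seedlings 7 days old were grown in light or in darkness and came from 4 genotypes: wild type (WT), csn3-1 (csn3 below), csn4-1 (csn4) and csn5 (csn5a-2 csn5b), called csn5-labelled. The 3 mutant lines carry lesions in subunits of the COP9 signalosome, which removes the NEDD8 modifier from cullin ubiquitin ligases and was found through seedlings that look light-grown in darkness. The label of the third line names both genes of its subunit. Each of the 8 groups held 3 arrays, described as independent biological replicates. The protocol of the light-grown WT arrays names the seedlings as CSN4-1 in Col, and that of the dark-grown WT arrays gives no such detail.

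Class III peroxidases are secreted haem enzymes that use hydrogen peroxide to oxidise phenolic compounds and cell wall components. They stiffen walls by cross-linking, help to polymerise lignin and suberin, and can also make reactive oxygen species that loosen walls. Arabidopsis holds a large family of them, many of which are active in roots and root hairs, where the balance of peroxide and superoxide is tied to cell elongation. AT5G64120, also called PRX71, is known to strengthen walls and limit growth when walls are damaged. No specific role is given here to AT5G17820 (PRX57) or AT4G26010 (PRX44). The gene table gives no symbol for these genes or for AT5G64120.

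Several features of the arrays bear on these values. The probe set of CSN5B, 1 of the genes the csn5 label names, was brighter in the csn5-labelled arrays: its scaled signal was 1573 to 1897 there in darkness and 118 to 177 in dark WT, and 651 to 895 there in light and 110 to 123 in light WT. Where that probe set lies relative to the lesion was not known, so its level checks no label. The ratio of 3' to 5' actin control signals, which rises as RNA degrades, was 2.44 to 3.12 in light WT, 2.26 to 21.3 in dark WT and 5.17 to 48.9 in the mutants. The csn4 and WT arrays grown in light lie in 1 range of sample accessions and the other 6 groups in another, which the labels do not call a batch. Every comparison in darkness lies within a single range, and so does csn4 against WT in light. Comparisons of light with darkness in WT and csn4 span both ranges, as do those of csn3 or csn5-labelled arrays with WT or with csn4 in light, and for these the range and the compared factor cannot be told apart.

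AT5G17820 stood far higher in dark-grown WT than in any mutant. Its scaled signals in the 3 dark arrays of each line were 2871, 1971 and 2148 in WT. They were 631, 441 and 396 in csn3. In csn4 they were 156, 307 and 302, and in csn5-labelled seedlings 268, 299 and 208. The lowest dark WT array was thus above the highest dark mutant array, and the groups did not overlap. The mean signal of WT was 4.76 times that of csn3, 9.14 times that of csn4 and 9.02 times that of the csn5-labelled line. On the log2(signal + 50) scale used for all differences below, the mutants lay at -2.15, -2.99 and -2.94 relative to WT, each with a standard error of 0.30. For comparison, 26.2%, 28.6% and 26% of all 18751 probe sets tested were called in csn3, csn4 and csn5-labelled seedlings against WT in darkness, where called means a log2 difference of 1 or more either way with an adjusted p under 0.05. In whole seedlings, fewer cells of a type and less RNA per cell cannot be told apart.

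In light the WT level of AT5G17820 was lower and the gap to the mutants smaller. The light WT arrays read 895, 847 and 806. Signals were 545, 651 and 568 in csn3 and 134, 317 and 657 in csn4. The csn5-labelled arrays read 200, 229 and 216. All light mutant arrays were below all light WT arrays, and csn4 was the most spread group. The log2 differences from WT were -0.50 in csn3, -1.31 in csn4 and -1.76 in the csn5-labelled line, each with a standard error of 0.30. The shares of all probe sets called against WT in light were 20.9%, 24.1% and 21.3% in the same order. Across the 8 groups the mean signals of AT5G17820 ran from WT dark (2330.1 ± 477, SD, n = 3) and WT light (849.6 ± 44.6, SD, n = 3) through csn3 light, csn3 dark, csn4 light, csn5-labelled dark and csn4 dark to csn5-labelled light (215 ± 14.7, SD, n = 3). The first 2 groups were separate from each other and from all the rest, and each later group overlapped the next.

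**Figure D1:**
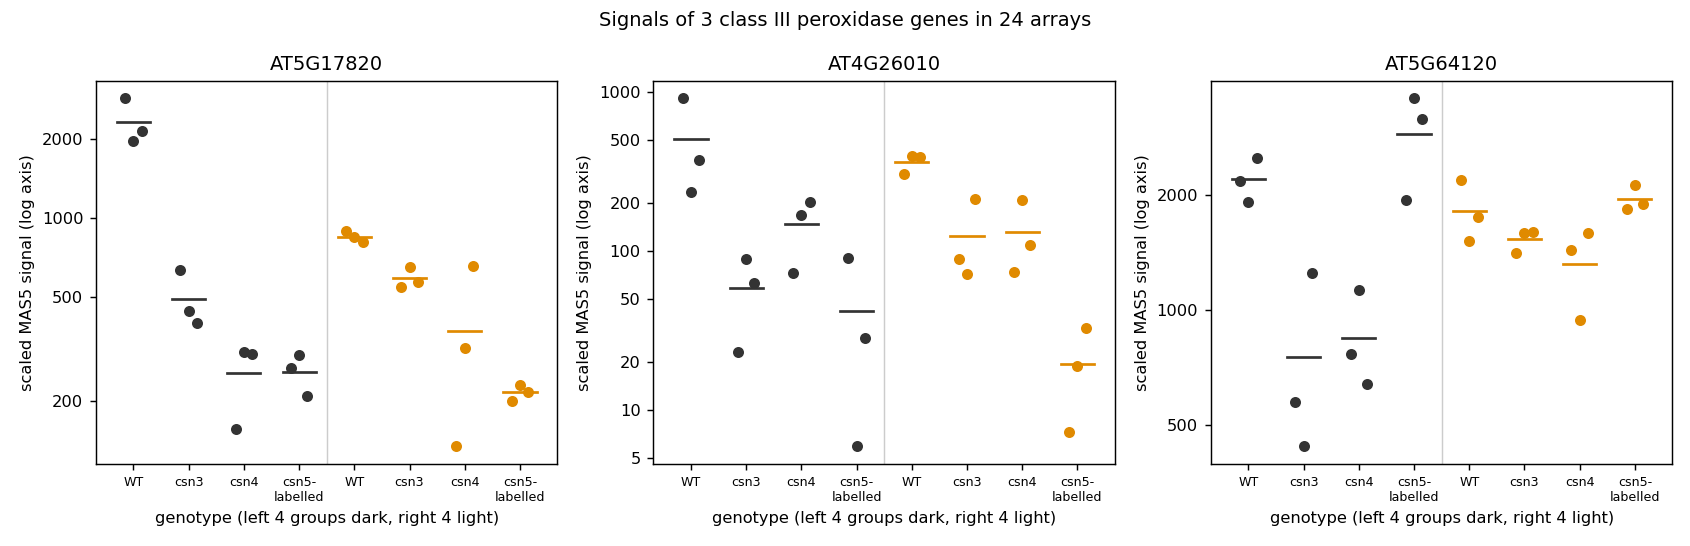
Scaled MAS5 signal (log axis) of AT5G17820, AT4G26010 and AT5G64120 in every array, with dark-grown groups in grey on the left and light-grown groups in orange on the right of each panel. Each point is 1 array and each bar the mean of 3; the WT arrays lie above all mutant arrays of the same condition for the first 2 genes, and the dark csn5-labelled arrays of AT5G64120 lie from 1932 to 3567.

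Light was accompanied by a fall of AT5G17820 in WT, and no mutant passed the same test. In WT the log2 difference of light from darkness was -1.39 ± 0.30 (SE; limma adjusted p = 0.000471), with all 3 light arrays below all 3 dark arrays, and 19.2% of all probe sets were called in that comparison. In csn3 it was 0.26 (limma adjusted p = 0.706), in csn4 0.29 (limma adjusted p = 0.573) and in csn5-labelled seedlings -0.21 (limma adjusted p = 0.734). The csn4 value was -0.19 without csn4 light replicate 3. The WT arrays compared here also entered the choice of the gene, and high readings in dark WT favour both the choice and the call. The adjusted p in WT is therefore not independent of the choice. Far fewer probe sets responded to light in the mutants overall: 0.88% were called in csn3, 3.49% in csn4 and 3.82% in the csn5-labelled line. The light response of each mutant minus that of WT is the light difference from WT less the dark one, both of which chose the gene, so it is given without a test. It was 1.65 ± 0.42 (SE) in csn3, 1.68 ± 0.42 (SE) in csn4 and 1.18 ± 0.42 (SE) in the csn5-labelled line. Over all probe sets 16.2%, 18.2% and 20.8% were called for such a difference, and nothing is read from these shares for this gene.

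AT4G26010 was a dim gene that was brightest in WT under both conditions. In dark WT its 3 arrays read 908, 233 and 371, and in light WT 302, 397 and 391. In csn3 the arrays read 23.0, 88.5 and 62.6 in darkness and 88.3, 71.2 and 212 in light. In csn4 they read 72.8, 167 and 203 in darkness and 73.4, 208 and 109 in light. The csn5-labelled groups had the lowest mean in each condition, with 90.5, 5.90 and 28.3 in darkness and 7.20, 18.9 and 32.5 in light. No mutant array reached the WT arrays of its own condition. Signals under 100 are close to the floor of such arrays. They made up 13 of the 24 readings and none of those in WT, so a ratio to the dimmest groups has little meaning. The log2 differences from WT in darkness were -2.22 in csn3, -1.36 in csn4 and -2.51 in the csn5-labelled line, with a standard error of 0.41. In light they were -1.33, -1.26 and -2.58 with the same error. The last of these depended on the constant added before log2 and was -3.47 with 16 and -1.95 with 100.

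Light against darkness passed no test for AT4G26010. The log2 difference was -0.24 ± 0.41 in WT (SE; limma adjusted p = 0.699), where the 3 dark arrays spread from 233 to 908 around the 3 light ones. It was 0.65 in csn3, -0.14 in csn4 and -0.31 in csn5-labelled seedlings, with limma adjusted p from 0.459 to 0.87. The light responses of the mutants minus that of WT were 0.89, 0.10 and -0.07, each with a standard error of 0.57, and are given without a test for the same reason as above. The sign of the WT value turned to 0.25 without WT dark replicate 1.

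AT5G64120 (PRX71) had the highest median signal of the 3 probe sets over the 24 arrays, though in dark WT its mean of 2193 was below the 2330 of AT5G17820. Its pattern was unlike that of the other 2, which the different contrast that chose it favours. In darkness it read 2168, 1918 and 2493 in WT. It read 575, 441 and 1247 in csn3 and 766, 1130.0 and 642 in csn4. The csn5-labelled arrays read 1932, 3567 and 3146. The csn3 and csn4 arrays were all below WT, whereas the csn5-labelled arrays overlapped WT. In csn4, whose dark arrays did not enter the choice, it fell against WT by 1.35 ± 0.27 (SE; limma adjusted p = 0.00015) on the log2 scale. The other dark differences reuse the arrays that chose the gene and have no test: csn3 lay at -1.60 and the csn5-labelled line at 0.35 against WT, each with a standard error of 0.27. The csn3 level minus that of the csn5-labelled line, which chose the gene, was -1.95 ± 0.27 (SE), and csn4 minus the csn5-labelled line was -1.70 ± 0.27 (SE), with no overlap of arrays in either pair. The mean of the 3 mutants against WT in darkness was -0.87, and without the csn5-labelled arrays, an alternative chosen after seeing the data, it was -1.48.

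In light the groups of AT5G64120 lay closer together, though all csn5-labelled arrays stayed above all csn3 and csn4 arrays. WT read 2179, 1518 and 1746, csn3 1409, 1592 and 1599, csn4 1437, 939.8 and 1585, and the csn5-labelled line 1840, 2125 and 1888. None of the mutants differed from WT by the test: the log2 differences were -0.22 in csn3 (limma adjusted p = 0.546), -0.46 in csn4 (limma adjusted p = 0.164) and 0.11 in the csn5-labelled line (limma adjusted p = 0.773). The log2 difference of light from darkness was 0.62 in csn4 (limma adjusted p = 0.143) and -0.27 in WT (limma adjusted p = 0.477), and neither passed. In csn3 it was 1.10 ± 0.27 (SE), with the 3 light arrays above the 3 dark ones, and in csn5-labelled seedlings it was -0.51 ± 0.27 (SE), both without a test because they reuse the dark arrays of the choice. The csn3 value was 0.81 without csn3 dark replicate 2 and 1.51 without csn3 dark replicate 3, an array that the labels also title replicate 1. The light response minus that of WT was 0.89 in csn4 (limma adjusted p = 0.0938), and, described only, 1.38 ± 0.38 (SE) in csn3 and -0.23 ± 0.38 (SE) in the csn5-labelled line.

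**Figure D2:**
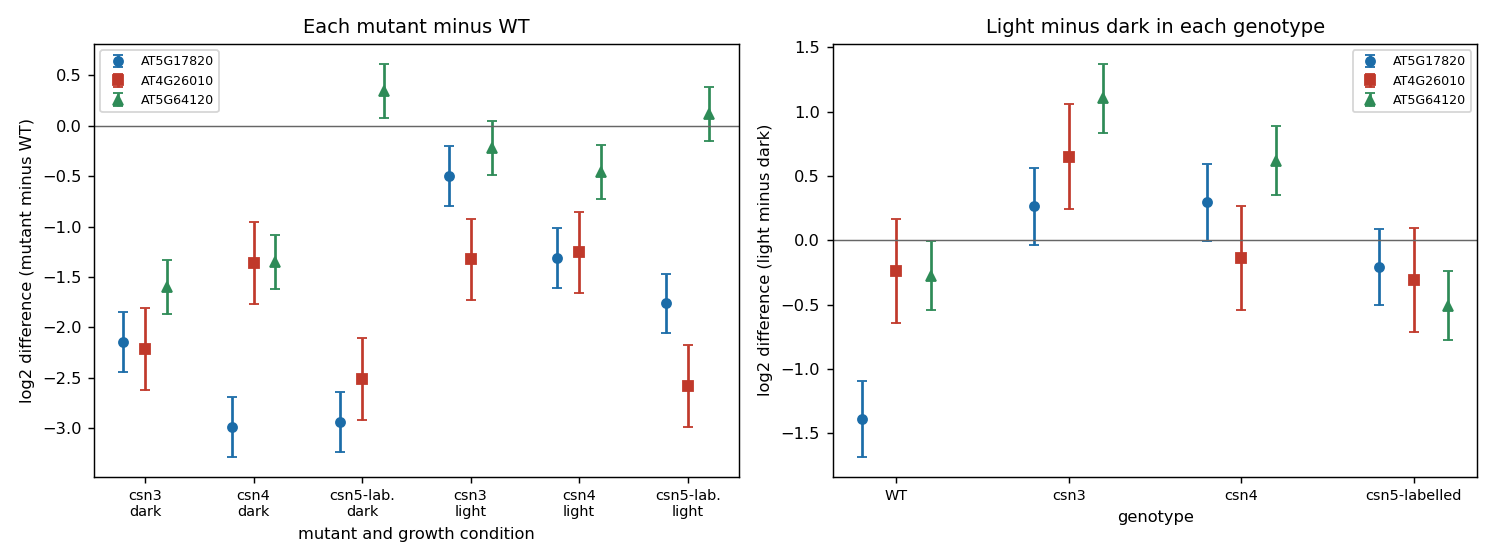
Left, log2 difference of each mutant from WT in darkness and in light for the 3 genes; right, log2 difference of light from darkness in each genotype. Points are limma estimates from 3 arrays per group and bars are standard errors; the light response of AT5G17820 is -1.39 in WT and between -0.21 and 0.29 in the mutants, and AT5G64120 lies at -1.60, -1.35 and 0.35 against WT in darkness.

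Between mutants, most pairs did not pass the test. In darkness 0.448% of all probe sets were called between csn3 and csn4, 0.341% between csn3 and the csn5-labelled line and 1.97% between csn4 and the csn5-labelled line, and in light the shares were 0.0213%, 0.384% and 1.93%. AT5G17820 was higher in csn3 than in the csn5-labelled line in light by 1.26 ± 0.30 (SE; limma adjusted p = 0.0417), with all 3 csn3 arrays above. That call was lost with quantile normalization (1.23, limma adjusted p = 0.0736), and its adjusted p was 0.0971 to 0.186 when any array of those groups was left out. In darkness csn3 lay above csn4 by 0.84 and above the csn5-labelled line by 0.79, with no overlap of arrays, but neither passed (limma adjusted p = 0.183 and 0.242). The csn4 level of AT4G26010 was 1.15 above the csn5-labelled one in darkness (limma adjusted p = 0.0936) and 1.32 above it in light (limma adjusted p = 0.0613), and neither was called. Its csn3 level in light was 1.25 above the csn5-labelled one (limma adjusted p = 0.195), also not called. The arrays of both light pairs did not overlap, and those of the dark pair did. AT5G64120 passed in no pair of mutants in light, where the largest difference was -0.58 for csn4 against the csn5-labelled line (limma adjusted p = 0.214).

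Most of the other peroxidase genes that changed in darkness changed downwards. A list of 70 further class III peroxidase loci held 52 with a probe set naming the gene alone, and 48 of these passed the filter on low signals. The 4 that did not, AT1G24110, AT3G50990, AT4G16270 and AT4G25980, reached at most 113 to 148 in any array. For the mean of the mutants against WT in darkness, 19 of 48 fell, 1 rose and 28 were not called. Over all probe sets tested 25.2% were called there, 13.5% upwards and 11.7% downwards. The median log2 difference of the 48 genes was -0.62, beside 0.18 over all probe sets. In light 10 fell, 4 rose and 34 were not called, against 20.6% called over all probe sets, 11.4% upwards and 9.21% downwards, and the medians were -0.10 and 0.18. With quantile normalization the medians over all probe sets were 0.05 and 0.02. Counted from the lowest of the 51 tested peroxidases, AT5G17820 ranked 6 in darkness and 12 in light, AT4G26010 ranked 11 and 6, and AT5G64120 ranked 22 and 25.

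Some other peroxidases, AT2G37130 and AT5G51890 among them, differed by more than AT5G17820 in darkness, whose mean over the mutants was -2.69. AT2G37130 had a mean signal of 16135 ± 690 (SD, n = 3) in dark WT and mean signals of 1045 to 1667 in the dark mutant groups, a log2 difference of -3.53 ± 0.21 (SE; limma adjusted p = 1.19e-13). AT5G51890 read 1648 to 1679 in dark WT and 978 to 1262 in light WT, and no mutant array exceeded 181. Its differences were -3.97 in darkness and -3.46 in light (limma adjusted p = 2.25e-12 and 5.24e-11). AT3G21770 fell by 2.40 and AT3G01190 fell by 2.61 in darkness (limma adjusted p = 1.86e-13 and 2.3e-11). PRXR1 (AT4G21960) was bright throughout, at 12719 ± 1726 (SD, n = 3) in dark WT and 14193 ± 500.5 (SD, n = 3) in light WT, and lay at -1.61 and -1.55 in the mean of the mutants (limma adjusted p = 8.71e-10 and 2.49e-09).

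A few peroxidases went the other way. AT5G58400 read 9.60 to 34.7 in dark WT and 20.8 to 71.0 in light WT, at the array's floor, and 219.7 to 460.5 in the mutant arrays. It rose by 2.47 in darkness and 1.88 in light (limma adjusted p = 1.09e-11 and 3.06e-09). This gene passed the filter on low signals through the mutant arrays alone, which favours calls upwards. AT4G36430 rose by 1.53 in light (limma adjusted p = 2.01e-07). PRX52 (AT5G05340), known for a part in lignin formation and named after its values were seen, was the highest in light at 2.35 (limma adjusted p = 1.13e-06), with 42.0 to 56.2 in light WT and 234 to 1474 in the light mutant arrays. The 1474 came from 1 csn4 array, and the other light csn4 arrays read 239 and 279. Its light WT arrays were close to the floor. Of the 19 genes that fell in darkness 36.8% also fell in light, and of the 10 that fell in light 70% also fell in darkness. Over all probe sets tested the corresponding shares were 36.3% and 46.0%. These 7 genes were AT1G30870, AT2G18980, AT2G37130, AT3G49960, PRXR1, AT5G51890 and AT5G66390, and the 2 comparisons share no arrays. AT3G49960 passed the filter on low signals through WT alone, with 69.2 to 144 in dark WT and 123 to 225 in light WT. No mutant array of it exceeded 54.0, so the filter favoured its calls downwards, and the counts of 19, 10 and 7 include it. AT1G30870 was also dim in the mutants, at 143 or less.

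**Figure D3:**
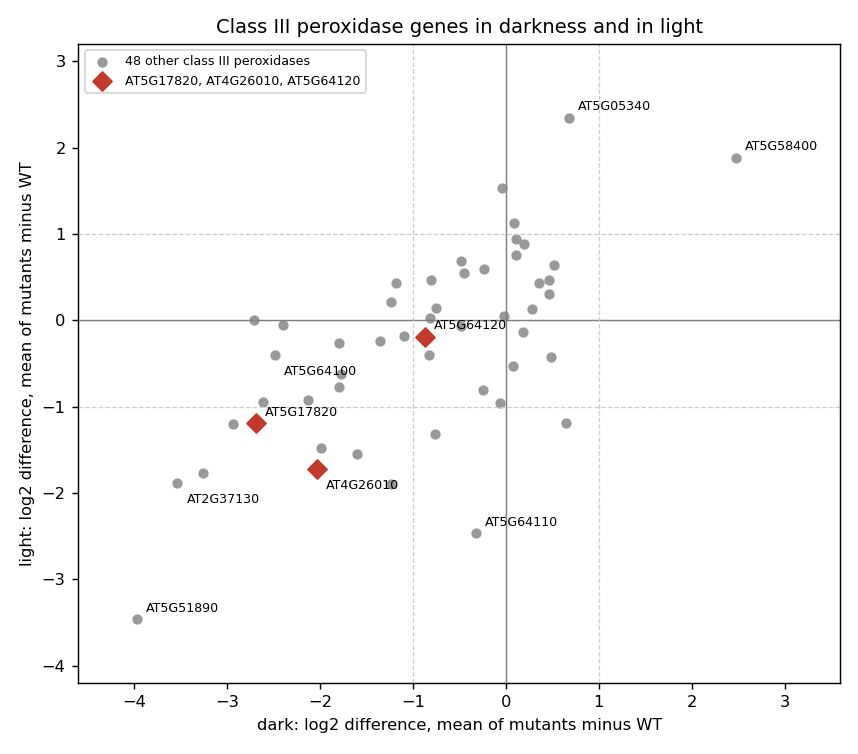
Log2 difference of the mean of the mutants from WT in darkness (horizontal) and in light (vertical) for 51 class III peroxidase genes. Red diamonds are AT5G17820, AT4G26010 and AT5G64120, grey points the other 48, and dashed lines mark a log2 difference of 1; AT5G51890 lies lowest on both axes at -3.97 and -3.46.

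The fall of AT5G17820 in light was shared by many of its relatives in WT. Of the 48 other tested peroxidases, 18 fell and 2 rose with light in WT, against 9.77% of all probe sets downwards and 9.48% upwards, and the median was -0.59 beside -0.05 over all probe sets. In the mutants 1, 3 and 4 of the 48 fell with light and 0, 0 and 1 rose, in csn3, csn4 and csn5-labelled seedlings, where 0.88%, 3.49% and 3.82% of all probe sets were called in either direction. The median size of the light difference over the 48 genes was 0.78 in WT, 0.30 in csn3, 0.44 in csn4 and 0.38 in the csn5-labelled line, and over all probe sets it was 0.44, 0.25, 0.31 and 0.29. The light response minus that of WT was called higher for 11 and lower for 2 of the 48 in csn3, with 7.93% and 8.29% of all probe sets called in those directions. It was called higher for 14 and lower for 2 in csn4 (8.78% and 9.42% of all), and higher for 15 and lower for 5 in the csn5-labelled line (10.6% and 10.2% of all). These 3 counts share the WT arrays, which are also those of the light response in WT.

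AT5G64120 has 2 further peroxidase genes, AT5G64100 and AT5G64110, directly before it in the order of protein-coding genes on chromosome 5, and the 3 had unlike patterns. AT5G64100 read 11504, 9481 and 10118 in dark WT and 1160, 1213 and 1041 in light WT. Its dark mutant arrays ran from 1234 to 2897. It fell with light in WT by 3.13 ± 0.17 (SE; limma adjusted p = 1.09e-13) and lay at -2.49 ± 0.14 (SE; limma adjusted p = 3.23e-14) in the mean of the mutants against WT in darkness, but at -0.40 in light, short of the fold for a call. AT5G64110 was high in a single group, with 479, 541 and 476 in light WT and 104, 180 and 158 in dark WT. No mutant array of AT5G64110 exceeded 186. It rose with light in WT by 1.49 ± 0.32 (SE; limma adjusted p = 0.000527) and lay at -2.47 ± 0.26 (SE; limma adjusted p = 1.17e-08) in the mutants in light. For AT5G64100 the light response of csn3, csn4 and csn5-labelled seedlings minus that of WT was 2.02, 2.24 and 1.99, and for AT5G64110 it was -2.04, -1.93 and -2.47, all called. The corresponding values of AT5G64120 were 1.38, 0.89 and -0.23. No other peroxidase of the list lay within 2 genes of AT5G17820 or AT4G26010.

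**Figure D4:**
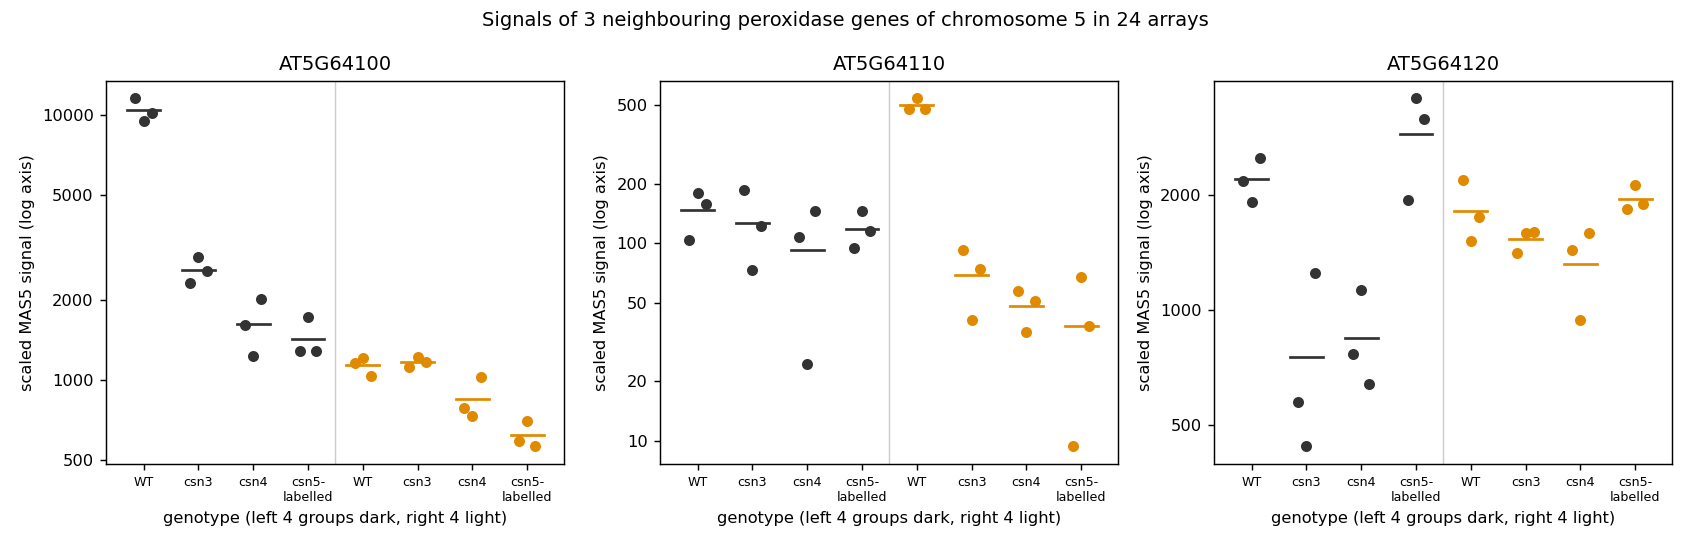
Scaled MAS5 signal (log axis) of AT5G64100, AT5G64110 and AT5G64120, successive peroxidase genes on chromosome 5, in every array. Points are arrays, bars are means of 3, grey is dark and orange is light; AT5G64100 is highest in dark WT at 9481 to 11504, AT5G64110 in light WT at 476 to 541, and AT5G64120 in the dark csn5-labelled arrays.

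Among 10563 other probe sets naming 1 gene, those most like AT5G17820 over the 24 arrays were AT1G72230 (Pearson r = 0.91), AT3G25930 (0.90), AT4G30170 (0.88) and AT2G24550 (0.88). AT4G30170 is itself a class III peroxidase. Its dark WT arrays read 2548, 1882 and 2056, and it lay at -1.79 ± 0.20 (SE) in the mean of the mutants in darkness. That difference is given without a test, since the likeness to AT5G17820 that named the gene favours it. AT4G26010 was most like AT5G62340 (0.87), AT3G12710 (0.86), GH9C2 (0.86), which encodes a glycosyl hydrolase of the cellulase kind, and AT2G22900 (0.86). AT5G64120 was most like AT4G28440 (0.80), the small GTPase gene RAB6A (0.75), AT5G11810 (0.75) and AT5G02530 (0.73). AT5G17820 and AT4G26010 had an r of 0.74 with each other, and AT5G64120 had 0.19 and 0.01 with them. The arrays share the split between WT and mutants, so these values only describe the data. AT5G17820 and AT4G26010 were both chosen as lower in all the mutants, and AT5G64120 on another contrast. The likeness of the first 2 and the unlikeness of AT5G64120 are thus favoured by the choice.

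Other genes of the root and of peroxidase chemistry were measured sparsely. Their lists were made with earlier results of these data known, so the tests of these genes are not independent of those results. Of 39 root markers 2 had a probe set naming them alone, and both fell in darkness and in light. JAL22, a jacalin-related lectin, read 11118 to 12214 in dark WT, 3148 to 3450 in light WT and at most 403 in the mutants, with log2 differences of -5.60 and -4.75 (limma adjusted p = 3.72e-14 and 1.57e-12). PYK10, the abundant root beta-glucosidase, lay at -1.84 and -1.56 (limma adjusted p = 1.68e-11 and 6.27e-10). Of 37 root hair genes 4 had such a probe set. The root hair expansin EXPA18 lay at -2.35 and -1.11 (limma adjusted p = 2.73e-06 and 0.0111). EXPA7, a second root hair expansin, lay at -0.92 and -0.67 in the mean of the mutants and was not called there, but in darkness it fell in csn3 (-1.08, limma adjusted p = 0.00968) and in the csn5-labelled line (-1.504, limma adjusted p = 0.000569). AT2G14760 lay at 0.87 and 0.76 in the mean and was not called there, but it was called higher in csn4, by 1.85 in darkness and 1.18 in light (limma adjusted p = 0.000696 and 0.0254). Its WT arrays were at the floor, at 24.5 or less in darkness and 29.7 or less in light. AT2G14760 thus passed the filter through mutant arrays alone, which favours calls upwards. All dark csn4 arrays were above dark WT. The light csn4 arrays were widely spread (mean 112 ± 94.6, SD, n = 3) and overlapped light WT. XTH26, a wall enzyme of root hairs, never exceeded 69.0 in any array, WT included, and was not tested.

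The summed signal of the 6 root and root hair genes was 32080 to 36932 in dark WT, 19407 to 20249 in light WT and 4663 to 8825 in the mutants, so dark WT was highest, light WT next and every mutant array lowest, as for AT5G17820. PYK10 and JAL22 made up most of that sum. The part of fewer root transcripts in the levels of the 3 peroxidases was not tested. With the actin ratio as a covariate, the light response of AT5G17820 minus that of WT was 1.67 in csn3, 1.77 in csn4 and 1.26 in the csn5-labelled line. Leaf genes moved as well: of 8 photosynthesis genes 3 rose and 1 fell in darkness and 6 fell in light in the mean of the mutants, beside 13.5% and 11.7% of all probe sets in darkness and 9.21% in light. The leaf list too was made with earlier results of these data known, so these counts are not those of an independent sample of leaf genes. Among them RCA, the Rubisco activase, rose by 2.91 in darkness, with LHCB4.3 at 2.08 and PSAE-1 at 1.39, and LHCB4.2 fell by 2.47. In light LHCB4.2 fell by 3.70, PSAN fell by 2.60, PRK fell by 1.87 and PSBY fell by 1.62.

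**Figure D5:**
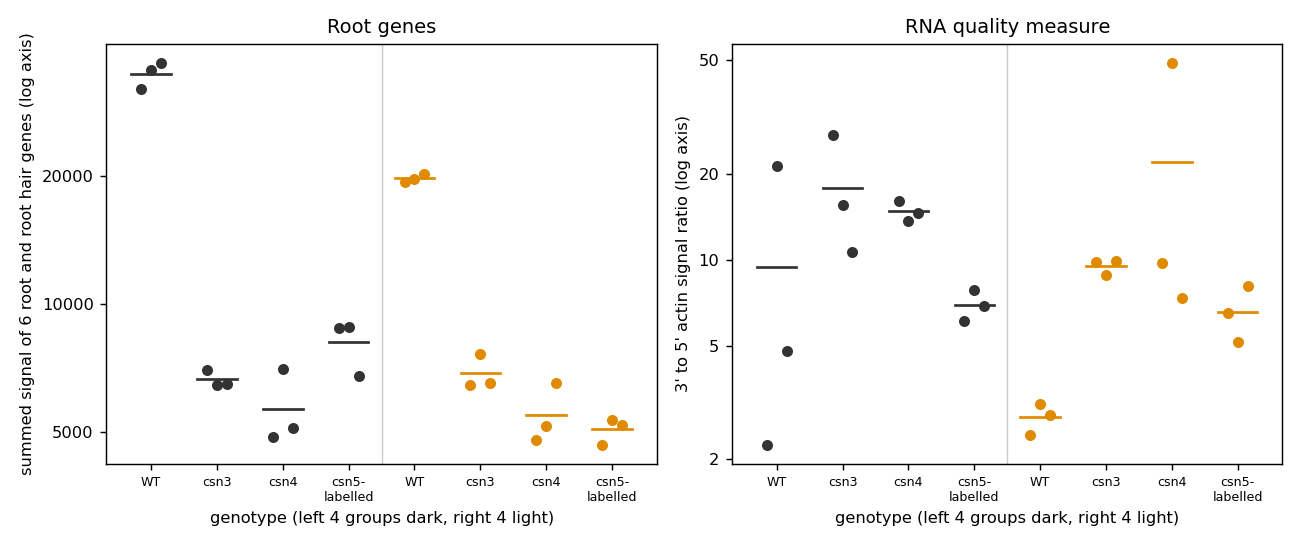
Left, summed scaled signal of 6 root and root hair genes (log axis) in every array; right, the ratio of 3' to 5' actin control signals (log axis), which rises as RNA degrades. Points are arrays, bars are means of 3, grey is dark and orange is light; the root sum is at least 19407 in WT and at most 8825 in the mutants, and the actin ratio is lowest in light WT and in 1 dark WT array.

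UPB1, a transcription factor known to repress root peroxidase genes, had its lowest level in light WT. Its arrays there read 134, 102 and 98.7, against 694, 877 and 888 in dark WT. The csn3 arrays read 438 to 620 in light, those of csn4 506 to 1008 and the csn5-labelled ones 212 to 322, so all light mutant arrays were above light WT. In light the mean of the mutants lay 1.64 ± 0.17 above WT on the log2 scale (SE; limma adjusted p = 5.73e-09). By line it was 1.84 in csn3 and 2.21 in csn4, both called, and 0.87 in the csn5-labelled line, short of the fold for a call. The dark difference of 0.15 did not pass (limma adjusted p = 0.459). UPB1 fell with light in WT by 2.43 ± 0.21 (SE; limma adjusted p = 2.75e-10). AT1G19230, the other measured gene of 15 listed for superoxide production and peroxidase control, lay at -0.03 and 0.37 and was not called. Of 23 lignin genes 2 were measured. HCT, a transferase of the lignin pathway, fell by 1.62 in darkness (limma adjusted p = 6.69e-10) and lay at -0.99 in light. By line in light HCT was called lower in csn4, at -1.32, but not in csn3 (-0.99) or the csn5-labelled line (-0.65). CCR2, a cinnamoyl-CoA reductase, lay at -0.59 in darkness and rose by 1.23 in light (limma adjusted p = 0.00423). In light it rose by 1.53 in csn4 and 1.63 in the csn5-labelled line, both called, and lay at 0.53 in csn3, not called. Light WT read 3.10 to 15.3, at the floor, and light csn3, at 10.7 to 60.5, overlapped it.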

How the data were processed

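Seedling RNA was measured on 24 ATH1 arrays, 3 per group. The deposited values were linear signal intensities per probe set, made by the authors with MAS5 per the submitters' processing notes, with version and scaling not given in the sources used here. Scaling set every array to the same trimmed mean (500, trimming 2%), and differences were taken on log2(signal + 50), which understates the ratio of dim signals. After 64 controls were dropped, 18751 of 22746 probe sets reached 100 in 3 or more arrays and entered the fit. In R 4.3.3, limma 3.58.1 fitted group means to the 24 arrays together (lmFit, then trended eBayes), and each contrast had Benjamini-Hochberg adjustment across every tested probe set. The scripts were tested on simulated data. Signal errors are SD over 3 arrays and their number limits the precision.

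Gene names came from the platform's annotation, with current symbols and gene order from the RefSeq table of TAIR10.1. Of the probe sets 13513 named 1 gene, 503 several and 8730 were unnamed here. No array column was left out (0), and no sequence or coordinate is given because no genome build is named for these values. The members and all gene lists were chosen with earlier results of these data known. Genes named were the 3 members and the 4 probe sets most like each. Up to 6 other peroxidases were named by smallest adjusted p in the mean of the mutants in darkness, and again in light. Up to 4 of each other list were named by that rule. Named after seeing their values were the 7 peroxidases falling in both conditions, those passing the filter through WT, the neighbours and the untested ones. Groups came from the labels. A csn3 dark array titled replicate 1 like another is called replicate 3. Alternatives were quantile normalization, the deposited scaling, other added constants and filters, fits on the compared groups alone, the replicate number as a block, the actin ratio as a covariate, leaving out the 4 arrays with the highest ratio, and leaving out each array.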

Additional observations from a re-analysis of the deposited data

Results flagged for a closer look

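The light response of AT5G17820 minus that of WT was 1.65 in csn3, 1.68 in csn4 and 1.18 in the csn5-labelled line on the log2 scale, and that of AT5G64120 was 1.38 in csn3. These values stood out as unequal light responses, but the arrays behind them also chose the genes, so no test supports them here. In WT and csn4 the light and dark arrays lie in different ranges of sample accessions, which cancel in the csn4 difference and not in those of csn3 and the csn5-labelled line.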

How the results depend on the processing

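The fall of AT5G17820 with light in WT and that of AT5G64120 in dark csn4 against WT kept their direction and their call under all alternatives run, and the dark differences of AT5G17820 from WT kept their direction. For AT5G17820 that call rests on WT arrays that also entered the choice of the gene, under every alternative. The replicate numbers did not pair the arrays: deviations of same-numbered arrays correlated at -0.0038 on average over 84 pairs, 17 of them above 0.1. With the replicate number as a block the light response of AT5G17820 in WT was -1.39, and no call changed.

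Other values moved. For AT5G17820, csn3 against WT in light was -0.36 with the actin ratio as a covariate, and the csn5-labelled line was -1.91 with 16 added, -1.59 with 100 added and -1.67 with the covariate. Its csn5-labelled interaction was 1.03 with quantile normalization and 1.19 with 16 added. The csn3 minus csn5-labelled difference in light was 1.23 with quantile normalization and 1.26 without a filter (limma adjusted p = 0.052), and csn4 minus csn5-labelled in darkness turned to 0.036 with the covariate and 0.21 without the 4 arrays of highest actin ratio. For AT4G26010, csn4 against WT in light was -0.84 with the covariate, the csn5-labelled line -3.47 with 16 added and -1.95 with 100, and the mean of the mutants -2.17 with 16. Its csn4 interaction turned to -0.11 without the 4 arrays, and the csn5-labelled one to 0.025 with 100 added, 0.11 with the covariate and 0.32 without the 4 arrays. Between mutants, csn4 minus csn5-labelled became called at 1.46 in darkness without the 4 arrays and at 2.00 in light with 16 added, and csn3 minus csn4 in light turned to 0.11 with quantile normalization and 0.22 without the 4 arrays. For AT5G64120, the dark mean was -1.48 over csn3 and csn4 alone. With the covariate csn3, csn4 and the mean turned to 0.13, 0.025 and 0.17 against WT in light, and the csn4 interaction became called at 1.12. Its csn3 light response was 1.10 in its own groups, 0.94 with the covariate and 0.99 without the 4 arrays. Other peroxidases that rose numbered 7 in light with 16 added, and 1 with light in WT with a minimum of 200. The cause of these changes was not tested.

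Leaving out 1 array gave these ranges. For AT5G17820 they were -0.19 to 0.79 for light in csn4, 1.02 to 1.29 for the csn5-labelled interaction, -0.19 to 0.21 for csn4 minus csn5-labelled in darkness and -0.027 to 0.94 in light, 0.32 to 1.29 for csn3 minus csn4 in light, where it became called without csn4 light replicate 3, and 1.19 to 1.31 for csn3 minus csn5-labelled in light. For AT4G26010 they were -0.63 to 0.25 for light in WT, -0.45 to 0.10 in csn4 and -0.61 to 0.056 in the csn5-labelled line, -0.39 to 0.49 for the csn4 and -0.56 to 0.32 for the csn5-labelled interaction, -0.0065 to 0.66 for csn3 minus csn5-labelled in darkness, -0.41 to 0.22 for csn3 minus csn4 in light and 1.03 to 1.56 for csn4 minus csn5-labelled in light, called without csn4 light replicate 3. For AT5G64120 they were -1.005 to -0.77 for the dark mean, lowest without csn3 dark replicate 3, -0.0030 to 0.25 for csn5-labelled against WT in light, 0.81 to 1.51 for light in csn3, 0.72 to 1.11 for the csn4 interaction, called without csn4 dark replicate 2 or csn4 light replicate 2, and -0.66 to 0.044 for csn3 minus csn4 in darkness. For results of the 3 genes not listed here, the alternatives run changed no call and no direction. Signals of AT4G26010 near the floor limit its values most.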
